A study of Oryctolagus cuniculus with 17 samples.

Results

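The genes described here are targets of the transcription factor NRF2 together with the genes that regulate it, measured by RNA-seq in the lung of preterm rabbit pups kept in hyperoxia or normoxia. The list holds 33 human gene symbols. Each symbol was matched to the human gene name that the raw count table gives beside each rabbit entry, and the entry with the highest total count was kept. An entry was found for 30 of the 33, and all 30 passed the filter on low counts, out of 13142 genes tested and 13827 entries in the table. TXN, TALDO1 and MAFG had no entry under these names and were not analysed here.

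NRF2, encoded by NFE2L2, is held at a low level in unstressed cells because KEAP1 presents it to a ubiquitin ligase for degradation. Oxidants and electrophiles modify cysteines of KEAP1, after which NRF2 accumulates in the nucleus and, paired with a small MAF protein, binds antioxidant response elements in the promoters of its targets. These targets make and recycle glutathione and thioredoxin, supply NADPH, detoxify quinones and aldehydes, export conjugates and break down heme. In the lung the pathway is best known as a defence against inhaled oxidants, high oxygen included. Much of the control of NRF2 acts on the protein, which was not measured here.

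All pups were New Zealand White rabbits taken preterm by hysterectomy on gestation day 28 and raised in incubators on milk replacer. Hyperoxia pups breathed 95% O2 until postnatal day 3 (HT3, 3 samples), day 5 (HT5, 2 samples) or day 7 (HT7, 3 samples). Normoxia pups breathed 21% O2 until the same days (NT3, NT5 and NT7, 3 samples each), so every group was born preterm and no term-born group enters the comparison. Each sample was RNA of a right lung homogenate, a mixture of all lung cell types, in which fewer cells of a type and less RNA per cell cannot be told apart.

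The libraries held between 13123731 and 18111086 counts with each locus counted once. Levels are given in CPM, the counts of a gene relative to the library total, scaled between libraries by TMM factors of 0.958 to 1.05. That total covers the entries tested with repeated loci included, and after scaling it ran from 14544632 to 19845253. The surfactant genes SFTPC, SFTPB and SFTPA1 and the alveolar type 1 gene AGER, which mark lung epithelium, summed to between 12577 and 32178 CPM, and 4 of the 6 listed lung markers were in the table. The HT5 samples stood apart from each other, with summed alveolar type 2 markers of 33083 CPM in replicate 1 and 12624 CPM in replicate 2 and summed skeletal muscle markers of 375 CPM in replicate 1 and 57.8 CPM in replicate 2. HT3 replicate 2 held 417 CPM of the muscle markers, beside 57.8 to 115 CPM in the other 15 samples. The calls of day 5 were therefore also tested with either HT5 sample left out, and the count on day 3 without HT3 replicate 2. A gene is said to have risen or fallen where the edgeR quasi-likelihood test gave a Benjamini-Hochberg adjusted p under 0.01 over all genes tested. The term DEG adds a log2 fold change (log2FC) above 2 or below -2. Errors are standard errors of the fit (SE). Nothing in the sources used here says which pups were littermates.

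On day 3, 1 of the 30 genes had risen in hyperoxia and none had fallen, against 0.0989% of all genes tested that rose and 0.107% that fell. The gene was NFE2L2 itself. The count was also 1 without HT3 replicate 2 or 3, but 0 without HT3 replicate 1 or any of the 3 NT3 samples, and 0 with the replicate number as a block (adjusted p of NFE2L2 = 0.0288). The log2FC was positive for 25 genes and negative for 5, with a median of 0.45 beside 0.00 over all genes tested. An unadjusted p under 0.05 was found for 14 of the 30 and for 2013 of all 13142 genes tested. In this fit none was a DEG, the class that took in 0.0533% of all genes as higher. DESeq2 gave 3 DEGs among the 30, SLC7A11, SRXN1 and NQO1 (log2FC 4.29, 2.94 and 2.17). A fit of the day 3 samples alone gave 1, SRXN1 (log2FC 2.93). The shares of all genes that were DEGs in these other fits are not given here.

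On day 5, 13 genes had risen and none had fallen, against 8.56% and 7.62% of all genes tested. Of the 13, 7 were DEGs, the class that took in 0.822% of all genes as higher and 0.761% as lower, namely SLC7A11, GCLM, TXNRD1, SRXN1, NQO1, AKR1B10 and SQSTM1. The median log2FC was 0.80 beside -0.02 over all genes tested.

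On day 7, 19 genes had risen and 1, EPHX1, had fallen, against 16.7% and 16.9% of all genes tested. The DEGs among them numbered 9, in a class that took in 1.75% of all genes as higher and 2.84% as lower, and were SLC7A11, GCLC, GCLM, TXNRD1, SRXN1, NQO1, ABCC1, ABCC3 and SQSTM1. The median log2FC was 0.88 beside -0.01 over all genes tested. The same 12 genes rose on days 5 and 7 (SLC7A11, GCLC, GCLM, GSS, GSR, TXNRD1, SRXN1, NQO1, ABCC3, NFE2L2, KEAP1 and SQSTM1), whereas in this fit AKR1B10 passed the test on day 5 only and GPX2, PGD, ME1, UGDH, ABCC1, HMOX1 and BLVRB on day 7 only. The share of all genes tested that rose on both days is not given here.

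**Figure D1:**
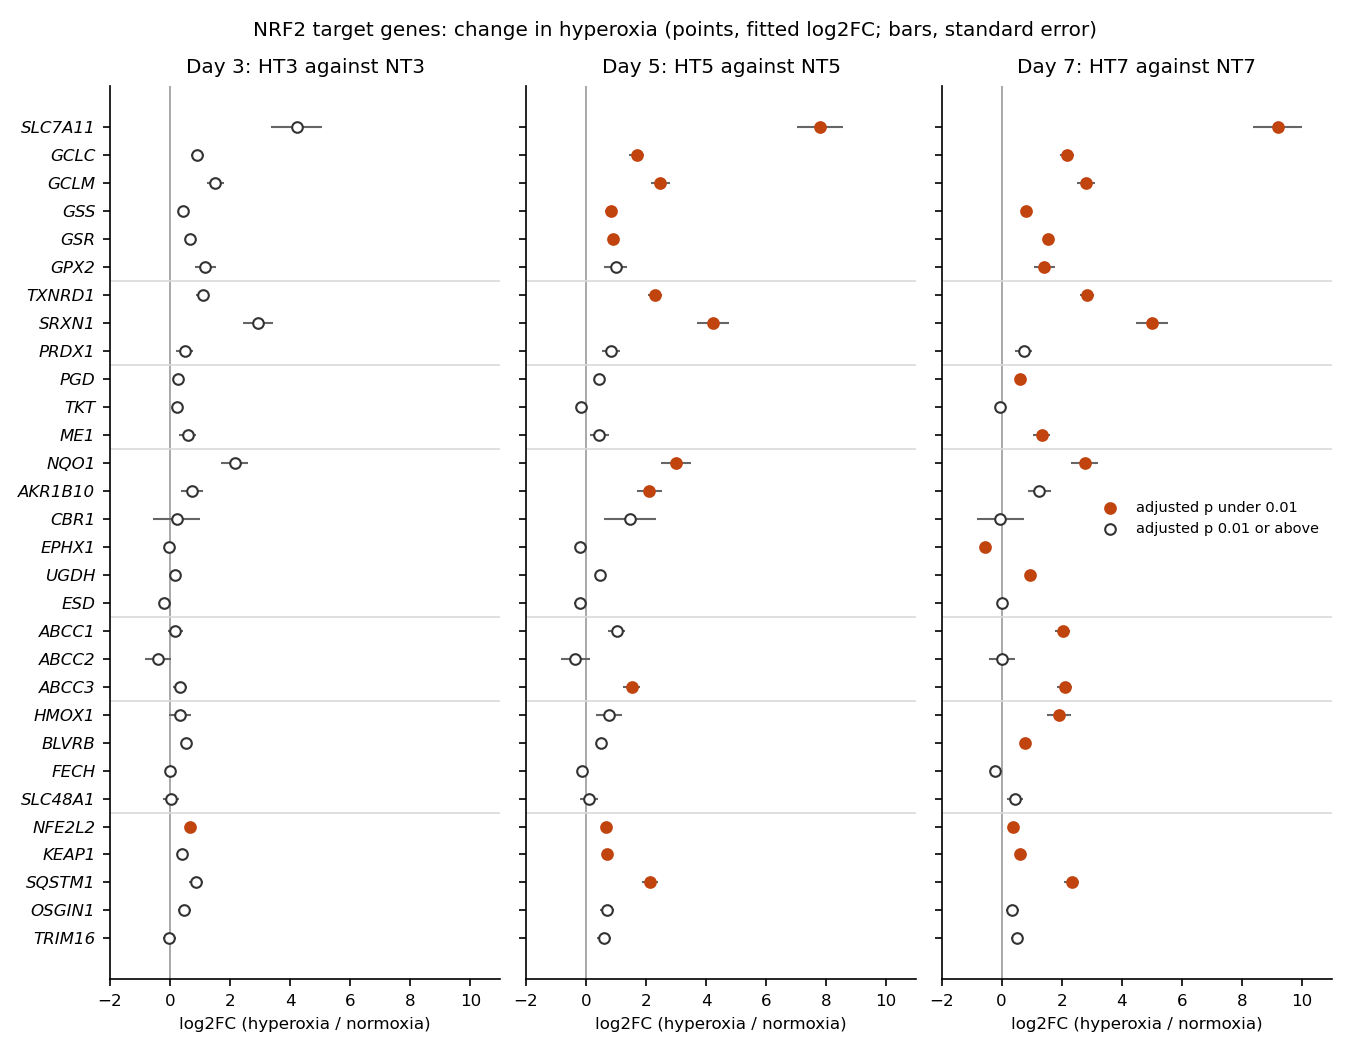
Fitted log2FC of hyperoxia over normoxia (horizontal axis) for the 30 NRF2 target genes, ordered by role, on days 3, 5 and 7. Points are the fitted values, bars are 1 SE, and filled points had an adjusted p under 0.01: 1 gene on day 3, 13 on day 5 and 20 on day 7.

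Every hyperoxia sample lay above every normoxia sample of the same day for 18 of the 30 genes on day 3, where 12.8% of all genes did so. The number was 21 on day 5, against 26.5% of all genes, and 22 on day 7, against 27.3%. The opposite order was seen for none of the 30 on days 3 and 5, against 13.9% and 29.2% of all genes, and for 2 on day 7 (EPHX1 and FECH), against 27.2%. For 11 genes all 8 hyperoxia samples lay above all 9 normoxia samples whatever the day, against 2.94% of all genes. They were SLC7A11, GCLC, GCLM, GSR, GPX2, TXNRD1, SRXN1, NQO1, NFE2L2, KEAP1 and SQSTM1.

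Glutathione synthesis and recycling was represented by 6 genes, of which none had passed the test on day 3, 5 had risen on day 5 and all 6 on day 7. SLC7A11, on chromosome 15 from 26382214 to 26463145 of the OryCun2.0 genome, encodes the cystine carrier subunit of the cystine/glutamate antiporter, which brings in the cysteine for glutathione. Its level was 2.01, 5.93 and 4.43 CPM in HT3, 29.3 and 145 CPM in HT5, and 75.5, 123 and 199.98 CPM in HT7. In normoxia it was 0, 0.454 and 0.171 CPM in NT3, 0.545, 0.255 and 0.362 CPM in NT5, and 0.273, 0.135 and 0.249 CPM in NT7. The gene was thus close to undetected in every normoxia sample and present in every hyperoxia sample. The fitted log2FC was 4.21 (SE 0.85, adjusted p = 0.0325) on day 3, 7.79 (SE 0.77, adjusted p = 3.46e-05) on day 5 and 9.19 (SE 0.82, adjusted p = 2.57e-06) on day 7. These sizes rest on few normoxia counts, 12 over NT3, 20 over NT5 and 10 over NT7, beside 217, 3114 and 7252 in hyperoxia. As a ratio of summed counts, the level in HT7 was 618 times that in NT7, with an exact 95% interval of 336 to 1289 that covers counting error only. The ratio was 19.2 (10.8 to 37.7) on day 3 and 243 (157 to 399) on day 5. The fitted log2FC on day 3 ran from 3.67 without NT3 replicate 1 to 5.49 without NT3 replicate 2, and did not pass in any of these fits (adjusted p = 0.0339 to 0.137). That on day 5 was 6.20 without HT5 replicate 2 and 8.52 without replicate 1, and passed in both (adjusted p = 0.000168 and 2.53e-06).

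GCLC and GCLM encode the catalytic and the modifier subunit of glutamate-cysteine ligase, the rate-limiting enzyme of glutathione synthesis. GCLM, on chromosome 13 from 70585789 to 70609590, stood at 7.90, 7.61 and 7.51 CPM in NT3, 8.97, 7.51 and 8.73 CPM in NT5, and 10.05, 8.84 and 9.28 CPM in NT7. In hyperoxia it was 19.2, 25.5 and 20.9 CPM in HT3, 24.6 and 68.99 CPM in HT5, and 68.9, 47.7 and 82.98 CPM in HT7. The normoxia samples of the 3 days thus formed a narrow band below all hyperoxia samples. The log2FC of GCLM was 1.51 (SE 0.29, adjusted p = 0.026) on day 3, 2.48 (SE 0.31, adjusted p = 0.000135) on day 5 and 2.82 (SE 0.30, adjusted p = 6.89e-06) on day 7. GCLC, on chromosome 12 from 43273420 to 43320653, stood at 53.8, 55.7 and 45.2 CPM in NT3, 44.2, 55.2 and 60.2 CPM in NT5, and 54.4, 51.7 and 43.5 CPM in NT7. Its levels were 90.1, 109.8 and 89.98 CPM in HT3, 119 and 226 CPM in HT5, and 216, 168 and 295 CPM in HT7. Its log2FC was 0.91 (SE 0.23, adjusted p = 0.0757), 1.70 (SE 0.25, adjusted p = 0.000338) and 2.18 (SE 0.23, adjusted p = 7.76e-06) on days 3, 5 and 7. Without HT5 replicate 2 the day 5 value of GCLC was 1.14 and did not pass (adjusted p = 0.0141), and that of GCLM was 1.53 and passed (adjusted p = 0.00294). Without HT5 replicate 1 they were 2.09 and 3.03 (adjusted p = 5.68e-05 and 2.62e-06). Both subunits of the ligase lay above normoxia in every hyperoxia sample.

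The other glutathione genes had smaller log2FC values than GCLC and GCLM on days 5 and 7. GSR, the reductase that returns oxidised glutathione to its reduced form, had a log2FC of 0.66, 0.92 and 1.55 on days 3, 5 and 7 (adjusted p = 0.0863, 0.00249 and 1.04e-05). GSS, which encodes the second enzyme of glutathione synthesis, had 0.43, 0.83 and 0.80 (adjusted p = 0.238, 0.00447 and 0.00134). GPX2, a selenium-dependent glutathione peroxidase of epithelia, was low throughout, at 1.88 to 4.65 CPM in normoxia and 5.32 to 11.6 CPM in hyperoxia, without overlap. Its log2FC was 1.17 on day 3 and 0.99 on day 5, neither past the threshold. It rose on day 7 (log2FC 1.42, SE 0.35, adjusted p = 0.00394) but lost the call without HT7 replicate 3 (adjusted p = 0.0275), NT7 replicate 2 (0.0233) or NT7 replicate 3 (0.0217). GSR and GSS lost the day 5 call without HT5 replicate 2 (adjusted p = 0.0579 and 0.0672), NT5 replicate 2 (0.0121 and 0.0193) or NT5 replicate 3 (0.0124 and 0.0214), with log2FC between 0.70 and 0.86 in these fits. Without HT5 replicate 1 the log2FC was 1.07 for GSR and 0.91 for GSS (adjusted p = 0.0031 and 0.00841).

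**Figure D2:**
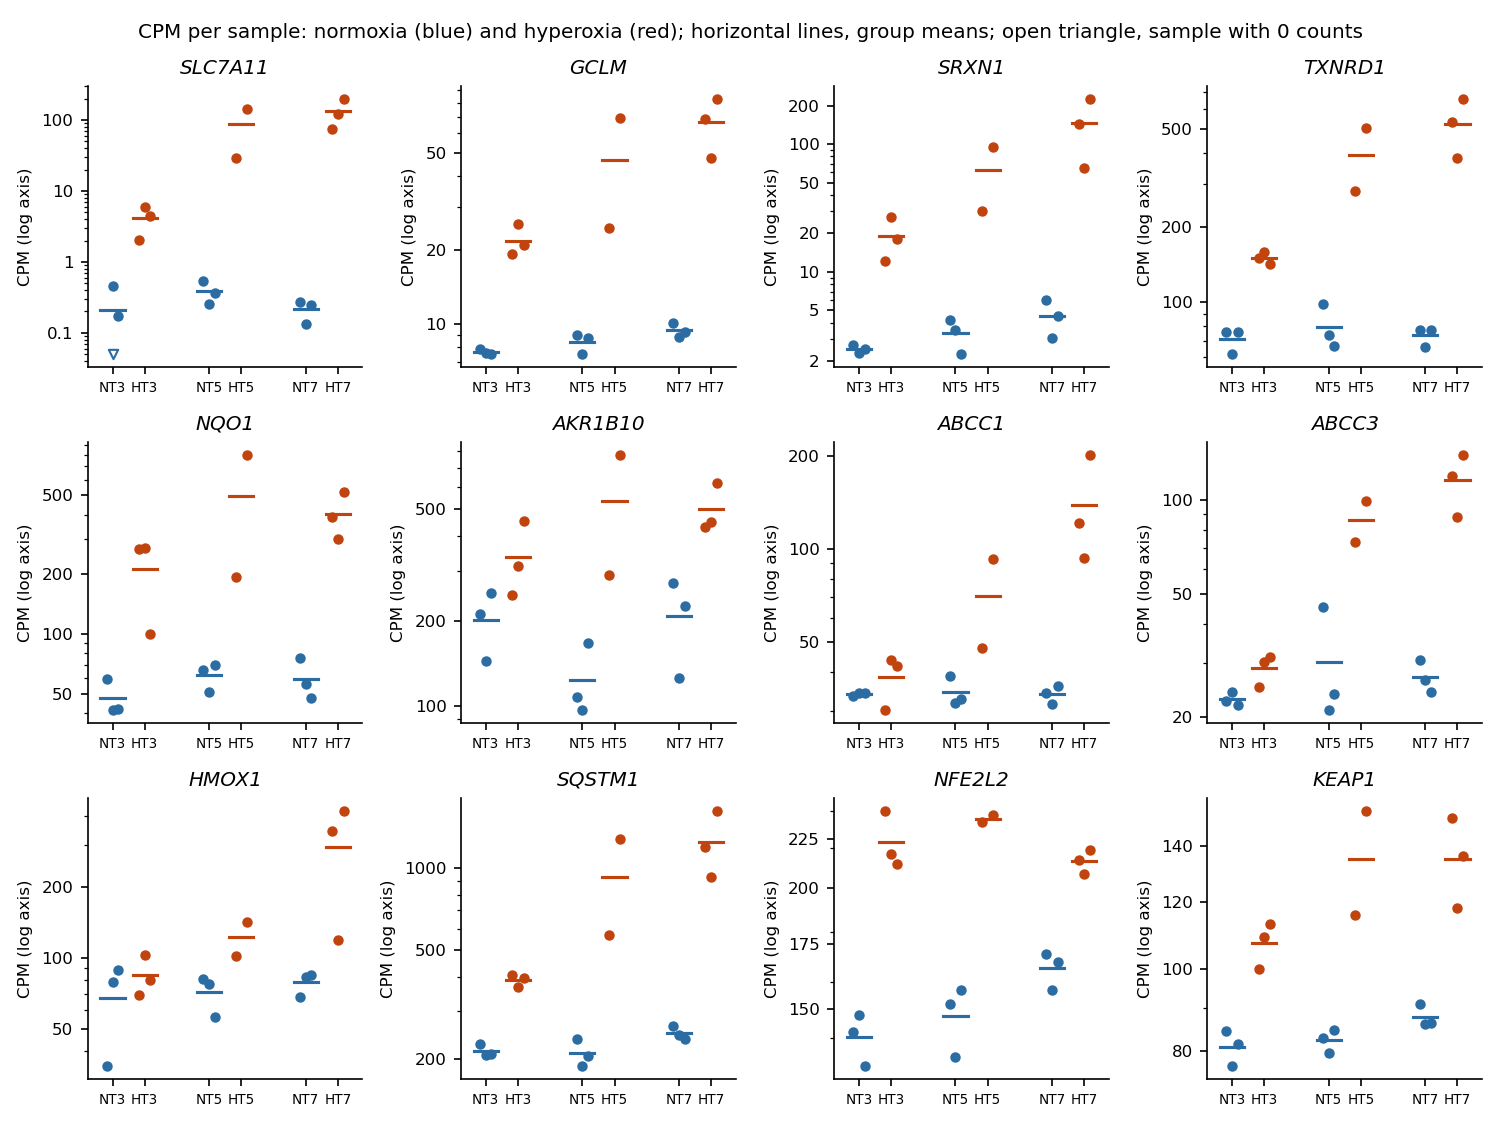
CPM on a logarithmic axis for 12 NRF2 pathway genes in each of the 17 samples, with normoxia in blue, hyperoxia in red, group means as horizontal lines and the NT3 sample with 0 SLC7A11 counts as an open triangle. NFE2L2 stood at 131 to 171 CPM in normoxia and 207 to 240.4 CPM in hyperoxia, whereas SLC7A11, SRXN1 and TXNRD1 had higher means in HT7 than in HT3.

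The thioredoxin system, which reduces protein disulfides and feeds the peroxiredoxins, was represented by TXNRD1, SRXN1 and PRDX1. TXNRD1, the cytosolic thioredoxin reductase on chromosome 4 from 83334752 to 83501095, stood at 151, 159 and 143 CPM in HT3, 281 and 502 CPM in HT5, and 529, 382 and 659 CPM in HT7. In normoxia it was 75.7, 61.8 and 75.8 CPM in NT3, 97.97, 73.6 and 66.7 CPM in NT5, and 77.5, 65.9 and 77.4 CPM in NT7. Normoxia samples never reached 100 CPM, and no hyperoxia sample was that low. Its log2FC was 1.09 (SE 0.22, adjusted p = 0.0325) on day 3, 2.30 (SE 0.24, adjusted p = 5.04e-05) on day 5 and 2.83 (SE 0.23, adjusted p = 1.25e-06) on day 7. The day 5 value was 1.81 without HT5 replicate 2 and 2.66 without replicate 1, and passed in both (adjusted p = 0.000939 and 1.06e-05).

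SRXN1 encodes sulfiredoxin, which restores peroxiredoxins that have been over-oxidised, and lies on chromosome 4 from 8229638 to 8232702. Its level was 12.1, 27.1 and 18.1 CPM in HT3, 30.1 and 94.3 CPM in HT5, and 144, 64.8 and 226 CPM in HT7. In normoxia it was 2.69, 2.32 and 2.50 CPM in NT3, 4.18, 3.50 and 2.27 CPM in NT5, and 6.01, 3.04 and 4.49 CPM in NT7. The lowest hyperoxia sample was above the highest normoxia sample, while replicates within HT5 and HT7 were several-fold apart. The log2FC was 2.93 (SE 0.51, adjusted p = 0.0146), 4.24 (SE 0.54, adjusted p = 0.000144) and 5.00 (SE 0.53, adjusted p = 7e-06) on days 3, 5 and 7, the second highest of the 30 genes on each day after SLC7A11. The day 5 value was 3.17 without HT5 replicate 2 and 4.83 without replicate 1, and passed in both (adjusted p = 0.00411 and 4.13e-05). PRDX1, a peroxiredoxin, did not pass the test on any day (log2FC 0.49, 0.84 and 0.74, adjusted p = 0.433, 0.0511 and 0.0399). Its entry spans 600 bases and collected 826 counts over all samples, so a change in the whole gene may not be seen there.

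Of the 3 genes of NADPH supply, none had passed the test on days 3 and 5 and 2 rose on day 7. ME1, the cytosolic malic enzyme, which makes NADPH from malate, stood at 10.8, 19.8 and 14.6 CPM in HT3, 19.2 and 12.4 CPM in HT5, and 15.5, 20.3 and 21.7 CPM in HT7. The normoxia values were 10.4, 11.7 and 8.08 CPM in NT3, 16.9, 8.08 and 9.77 CPM in NT5, and 8.75, 6.81 and 7.23 CPM in NT7. The groups overlapped on days 3 and 5 and separated on day 7. The log2FC of ME1 on day 7 was 1.33 (SE 0.29, adjusted p = 0.00169). PGD, the second NADPH-producing enzyme of the pentose phosphate pathway, stood at 249, 220.1 and 188 CPM in HT7 and 134, 165 and 134 CPM in NT7, with a log2FC of 0.60 (SE 0.13, adjusted p = 0.00177) that lost the call without HT7 replicate 1 (adjusted p = 0.0103) or NT7 replicate 3 (0.0106). On the earlier days it was 136, 146 and 144 CPM in HT3 against 119, 123 and 115 CPM in NT3, and 193 and 179 CPM in HT5 against 166, 125 and 122 CPM in NT5. The samples of PGD did not overlap on any day, although its differences of 0.25 and 0.43 on days 3 and 5 did not pass the test (adjusted p = 0.383 and 0.0348). Without NT5 replicate 1 the day 5 difference was 0.59 and passed (adjusted p = 0.00644). TKT, the transketolase of the same pathway's non-oxidative branch, had a log2FC of 0.24, -0.16 and -0.06 (SE 0.13, 0.15 and 0.13; adjusted p = 0.409, 0.424 and 0.741).

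The quinone, aldehyde and conjugation enzymes were the most mixed group, with 6 genes of which 2 rose on day 5 and, on day 7, 2 rose and 1 fell. NQO1, a quinone reductase that is widely used as a readout of NRF2, lies on chromosome 5 from 25137686 to 25149505. It was measured at 268, 272 and 99.6 CPM in HT3, 193 and 801 CPM in HT5, and 388, 302 and 521 CPM in HT7. In normoxia it stood at 59.5, 41.4 and 42.1 CPM in NT3, 65.6, 51.1 and 69.7 CPM in NT5, and 75.5, 56.2 and 47.5 CPM in NT7. HT3 replicate 3 was far below the other HT3 samples but still above every normoxia sample. The log2FC was 2.16 (SE 0.45, adjusted p = 0.0363), 3.00 (SE 0.49, adjusted p = 0.000645) and 2.76 (SE 0.46, adjusted p = 0.000226) on days 3, 5 and 7. Without HT5 replicate 2 the day 5 value was 1.62 and no longer passed (adjusted p = 0.0314), and without replicate 1 it was 3.69 (adjusted p = 5e-05).

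AKR1B10, an aldo-keto reductase of retinal and lipid aldehydes, stood at 248, 313 and 454 CPM in HT3, 291 and 778 CPM in HT5, and 430.5, 448 and 619.7 CPM in HT7. The normoxia levels were 212, 144 and 252 CPM in NT3, 108, 96.7 and 167 CPM in NT5, and 273, 126 and 227 CPM in NT7. It rose on day 5 (log2FC 2.11, SE 0.41, adjusted p = 0.00177), whereas the day 7 value of 1.26 (SE 0.37) did not pass (adjusted p = 0.0115) although the groups did not overlap. That value passed in DESeq2 (adjusted p = 0.00148), in a fit of the day 7 samples alone (0.00976) and with the replicate number as a block (0.00752). AKR1B10 did not pass on day 7 in any of the 6 fits that each lacked 1 sample of that day (adjusted p = 0.0115 to 0.0566). Without HT5 replicate 2 its day 5 log2FC was 1.21 (adjusted p = 0.081), and without replicate 1 it was 2.65 (adjusted p = 0.000356). AKR1B10 belongs to a family of close relatives, and how reads shared between them were counted is not given in the sources used here.

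UGDH, which makes the UDP-glucuronate used in glucuronidation, rose on day 7 (log2FC 0.96, SE 0.15, adjusted p = 0.000154) after 0.15 and 0.46 on days 3 and 5. EPHX1, the microsomal epoxide hydrolase, was the only one of the 30 to fall, at 138, 122 and 141 CPM in HT7 against 197, 191 and 197 CPM in NT7 (log2FC -0.54, SE 0.10, adjusted p = 0.00052). Its locus is shared with SRP9, a signal recognition particle gene that carries the same counts, so the fall cannot be assigned to either. CBR1, a carbonyl reductase, varied from 3.996 to 34.5 CPM without separating the groups (log2FC 0.22, 1.47 and -0.05 with SE 0.78, 0.86 and 0.78). With 1 sample left out, the log2FC of CBR1 ran from -0.76 (without HT5 replicate 2) to 2.30 on day 5 and from -0.46 to 1.37 on day 7. Its symbol has 6 entries on one scaffold, and the entry used encloses the other 5 on the opposite strand. ESD, which hydrolyses S-formylglutathione, had a log2FC of -0.20, -0.19 and 0.01 (adjusted p = 0.635, 0.505 and 0.972).

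Of the 3 export pumps, ABC transporters that carry glutathione and glucuronide conjugates out of cells, none passed the test on day 3, 1 rose on day 5 and 2 on day 7. ABCC1, on chromosome 6 from 10811207 to 10899739, was measured at 30.2, 43.9 and 41.8 CPM in HT3, 48.1 and 92.7 CPM in HT5, and 122, 93.97 and 202 CPM in HT7. Its normoxia levels were 33.6, 34.4 and 34.2 CPM in NT3, 38.9, 31.9 and 32.9 CPM in NT5, and 34.2, 31.7 and 36.2 CPM in NT7. HT3 straddled the normoxia range, while HT7 was well above it. The log2FC was 0.18 (SE 0.26, adjusted p = 0.787) on day 3, 1.03 (SE 0.28, adjusted p = 0.013) on day 5 and 2.03 (SE 0.26, adjusted p = 3.2e-05) on day 7. Without HT5 replicate 1 the day 5 value was 1.42 and passed (adjusted p = 0.00228), and without HT5 replicate 2 it was 0.46 (adjusted p = 0.353).

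ABCC3, on chromosome 19 from 37064045 to 37105131, stood at 24.96, 30.1 and 31.2 CPM in HT3, 73.1 and 99.6 CPM in HT5, and 120.1, 88.2 and 140.05 CPM in HT7. The normoxia levels were 22.6, 24.2 and 21.96 CPM in NT3, 45.3, 21.1 and 23.8 CPM in NT5, and 30.6, 26.4 and 24.1 CPM in NT7. It did not differ past the threshold on day 3 (log2FC 0.33, SE 0.24, adjusted p = 0.56) and rose on day 5 (1.52, SE 0.27, adjusted p = 0.000981) and day 7 (2.10, SE 0.25, adjusted p = 1.7e-05). Without HT5 replicate 2 the day 5 value was 1.27 and did not pass (adjusted p = 0.0268), and without replicate 1 it was 1.73 (adjusted p = 0.00115). ABCC2, the apical pump of liver and kidney, was between 0.688 and 2.32 CPM in all samples and had a log2FC of -0.41, -0.35 and 0.02 (SE 0.44, 0.49 and 0.44). Its low level limits the size of change that could be detected.

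Of the 4 heme genes, none passed the test on days 3 and 5 and 2 rose on day 7. HMOX1 encodes heme oxygenase 1, which opens the heme ring and releases iron, carbon monoxide and biliverdin, and lies on chromosome 4 from 86061604 to 86066620. It was measured at 69.7, 103 and 80.7 CPM in HT3, 102 and 142 CPM in HT5, and 347, 119 and 421 CPM in HT7. Its normoxia levels were 34.6, 79.1 and 88.4 CPM in NT3, 81.5, 77.3 and 55.96 CPM in NT5, and 67.9, 82.9 and 84.7 CPM in NT7. HT7 replicate 2 lay close to the HT5 samples, and the other HT7 samples were far above it. The log2FC was 0.33 (SE 0.38, adjusted p = 0.739) and 0.77 (SE 0.42, adjusted p = 0.174) on days 3 and 5 and 1.91 (SE 0.39, adjusted p = 0.00111) on day 7.

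BLVRB, a biliverdin reductase that also reduces flavins, stood at 91.1, 90.1 and 90.3 CPM in HT3, 88.9 and 68.4 CPM in HT5, and 132, 102 and 124 CPM in HT7. In normoxia it was 61.6, 67.4 and 58.3 CPM in NT3, 60.3, 52.6 and 54.8 CPM in NT5, and 74.7, 65.3 and 68.4 CPM in NT7. The groups were separate on each day, but only the day 7 difference passed the test (log2FC 0.54, 0.49 and 0.78 with adjusted p = 0.0429, 0.0112 and 0.000107). FECH, the last enzyme of heme synthesis, had a log2FC of -0.01, -0.12 and -0.22 (adjusted p = 0.972, 0.492 and 0.119). SLC48A1, a heme transporter of the lysosome, had 0.04, 0.11 and 0.44 (adjusted p = 0.966, 0.811 and 0.199).

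The lung also holds macrophages, which break down heme. Their 8 markers, all in the table, summed to 1869.9 to 2438 CPM in HT7 and 1125 to 1329 CPM in NT7, to 1684 to 1845 CPM in HT5 and 849 to 1543 CPM in NT5, and to 997 to 1411 CPM in HT3 and 921 to 1004 CPM in NT3. Most of the sum was CD68, at a mean of 1597 CPM in HT7 and 688 CPM in NT7 (log2FC 1.21, adjusted p = 0.000119), and its locus is shared by 7 genes with the same counts. The other 7 markers summed to 375 to 691 CPM in HT7 and 457 to 561 CPM in NT7, ranges that overlap. They also overlapped on day 5 (363 to 697 CPM in HT5, 253 to 712 CPM in NT5). On day 3 they were higher without overlap, at 354 to 556 CPM in HT3 and 279.96 to 344 CPM in NT3. Of these the scavenger receptor MARCO fell on day 7 (log2FC -2.19, adjusted p = 0.00331), while MRC1 stood at -0.83 (adjusted p = 0.143), MSR1 at 1.71 (0.0243) and CD163 at 1.49 (0.026). Summed neutrophil markers were 921 to 1265 CPM in HT3 and 262 to 622 CPM in NT3, 589.8 to 866 CPM in HT5 and 143 to 623 CPM in NT5, and 888 to 2806 CPM in HT7 and 811 to 988 CPM in NT7, so that the groups were apart on day 3 only. The 4 erythroid markers summed to 111 to 182 CPM in HT3 and 91.8 to 198 CPM in NT3, and were lower without overlap on day 5 (70.1 to 81.5 CPM in HT5, 97.97 to 180.04 CPM in NT5) and day 7 (49.7 to 69.9 CPM in HT7, 123 to 211 CPM in NT7). Summed alveolar type 2 markers were higher without overlap on day 3, at 24752 to 27972 CPM in HT3 and 17481 to 20362 CPM in NT3. They overlapped on day 5 (12624 to 33083 CPM in HT5, 12584 to 24813 CPM in NT5) and on day 7, where they ran from 13415 to 29399 CPM in HT7, with replicate 2 highest, and from 17240.5 to 23215 CPM in NT7. Summed airway markers were lower without overlap on day 5, at 162 to 216 CPM in HT5 and 289 to 334 CPM in NT5, and summed muscle markers on day 7, at 62.1 to 72.7 CPM in HT7 and 93.4 to 112 CPM in NT7. Most of the muscle sum on day 7 was MYLPF, at a mean of 60.8 CPM in HT7 and 95.4 CPM in NT7, and its locus is shared by 2 genes. On that day ACTA1 and ATP2A1 had a log2FC of 1.36 and 1.92, and MYH8, TNNT3 and CKM of -1.77, -2.16 and -0.83, none of which passed. No single marker of these lists passed the test on day 3. Of the 7 type 2 markers in the table NAPSA fell on day 7 (log2FC -1.49, adjusted p = 0.00658), and the others did not pass, with SLC34A2 at -1.51 (adjusted p = 0.0268) and SFTPA1 at 1.17 (adjusted p = 0.0229). The alveolar type 1 gene AGER fell on days 5 and 7 (log2FC -1.27 and -2.04, adjusted p = 0.00804 and 5.54e-05). Of the 6 airway markers in the table, CYP2F1 (-2.19 and -3.72, adjusted p = 0.00818 and 4.34e-05) and TPPP3 (adjusted p = 0.00351 and 1.51e-05, with a log2FC of -1.64 on day 7) also fell on both days, and AGER and TPPP3 each share their locus with another gene. The airway gene SCGB3A2 rose on day 7 (2.82-fold, adjusted p = 0.00473), while SCGB3A1 (log2FC -1.95, adjusted p = 0.0137), FOXJ1 (-0.01, 0.966) and BPIFA1 (1.03, 0.555) did not pass. In HT7 replicate 2, 16 of the 19 genes that rose on day 7 had their lowest HT7 level, a count given without the share over all genes that rose on that day. No marker list was at 0 in any group, and the part of these cell types in the changes of HMOX1 or of the other genes was not tested.

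Among the regulators, 1 gene rose on day 3 and 3 on each of days 5 and 7. NFE2L2, the gene of NRF2, lies on chromosome 7 from 116895286 to 117079121. It stood at 240.4, 217 and 212 CPM in HT3, 234 and 238 CPM in HT5, and 214, 207 and 219 CPM in HT7. In normoxia it was 142, 148 and 131 CPM in NT3, 152, 134 and 157 CPM in NT5, and 171, 157 and 168 CPM in NT7. Replicates were tight and the groups were fully apart. The log2FC was 0.67 (SE 0.09, adjusted p = 0.00177), 0.68 (SE 0.10, adjusted p = 0.000309) and 0.37 (SE 0.09, adjusted p = 0.00321) on days 3, 5 and 7, so that the gene of the factor changed by under 2-fold on each day. The day 5 value passed without either HT5 sample (adjusted p = 0.000997 and 0.0082). The samples of day 3 that share a replicate number deviated together, and with the replicate number as a block NFE2L2 kept its log2FC of 0.67 but not the call on that day (adjusted p = 0.0288). The call on day 3 was also lost without HT3 replicate 1 or any of the NT3 samples in turn, with an adjusted p of 0.0111 to 0.0191, and that on day 7 without HT7 replicate 3 (0.0119) or NT7 replicate 2 (0.0187). In fits of each day's samples alone the gene did not pass on any day (adjusted p = 0.0188, 0.0223 and 0.0218 on days 3, 5 and 7).

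KEAP1, the inhibitor of NRF2, was measured at 100.1, 109 and 113 CPM in HT3, 116 and 154 CPM in HT5, and 151, 118 and 136 CPM in HT7. In normoxia it stood at 84.5, 76.7 and 81.5 CPM in NT3, 82.9, 79.5 and 84.6 CPM in NT5, and 90.9, 86.1 and 86.3 CPM in NT7. The inhibitor and the factor thus lay on the same side of normoxia. The log2FC of KEAP1 was 0.41 (SE 0.11, adjusted p = 0.0957), 0.71 (SE 0.12, adjusted p = 0.000928) and 0.62 (SE 0.11, adjusted p = 0.000423), and without HT5 replicate 2 the day 5 value was 0.48 (adjusted p = 0.0345) and without replicate 1 it was 0.90 (0.000261).

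SQSTM1 encodes p62, an autophagy receptor that binds KEAP1 and is itself a target of NRF2. Its level was 406, 367 and 395 CPM in HT3, 569.9 and 1283 CPM in HT5, and 1194, 927 and 1625 CPM in HT7. The normoxia samples stood at 226, 207 and 209 CPM in NT3, 236, 188 and 205 CPM in NT5, and 264, 244 and 236 CPM in NT7. Its level in HT3 was already clear of normoxia, and HT7 was higher again. The log2FC was 0.86 (SE 0.23, adjusted p = 0.0919), 2.14 (SE 0.26, adjusted p = 9.48e-05) and 2.33 (SE 0.24, adjusted p = 5.99e-06). The day 5 value was 1.43 without HT5 replicate 2 and 2.61 without replicate 1, and passed in both (adjusted p = 0.002 and 3.88e-06). OSGIN1, an oxidative-stress-induced growth inhibitor, did not pass on any day (log2FC 0.47, 0.70 and 0.36, adjusted p = 0.302, 0.034 and 0.17). TRIM16, a ubiquitin ligase that acts on the KEAP1-NRF2 complex, did not pass either (log2FC -0.02, 0.61 and 0.51, adjusted p = 0.98, 0.057 and 0.0579). Without HT5 replicate 1 the day 5 log2FC was 1.09 for OSGIN1 and 1.02 for TRIM16. Without HT5 replicate 2 it was 0.13 and 0.03, so the day 5 difference of both genes rested on that sample.

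**Figure D3:**
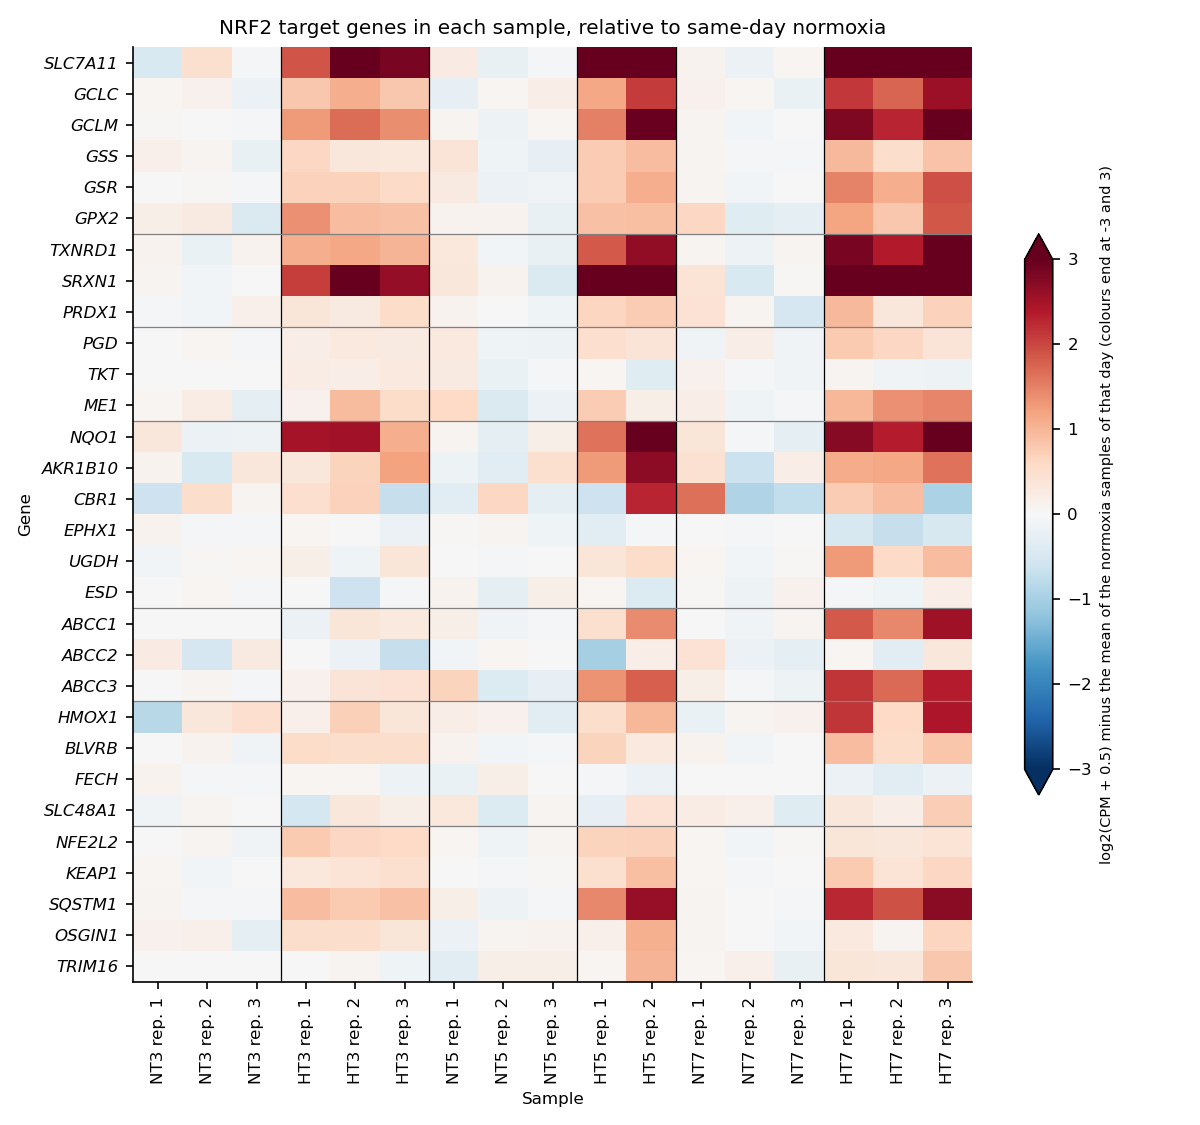
Each of the 30 genes (vertical axis, by role) in each of the 17 samples (horizontal axis), coloured by log2(CPM + 0.5) minus the mean of the same day's normoxia samples, with colours ending at -3 and 3. The median over the genes was 0.35 to 0.52 in the HT3 samples, 0.65 and 0.97 in HT5, 0.61 to 0.98 in HT7 and -0.10 to 0.10 in normoxia.

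The samples of a group did not all carry the change to the same degree. As the median over the 30 genes of the difference from same-day normoxia, the HT3 samples stood at 0.35, 0.52 and 0.46 on the log2 scale and the HT7 samples at 0.98, 0.61 and 0.89. HT5 replicate 1 stood at 0.65 and replicate 2 at 0.97. All 13 genes that rose on day 5 were higher in HT5 replicate 2 than in replicate 1. The share of all genes that rose on day 5 with the same order is not given here, so the order may not be particular to these genes. Without replicate 2, which leaves 1 HT5 sample whose spread is taken from the other groups, 6 of the 30 genes passed on day 5, and without replicate 1, 16 did. In a fit of the 5 samples of day 5 alone none passed (SLC7A11 had adjusted p = 0.0142 and NQO1 0.0219).

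**Figure D4:**
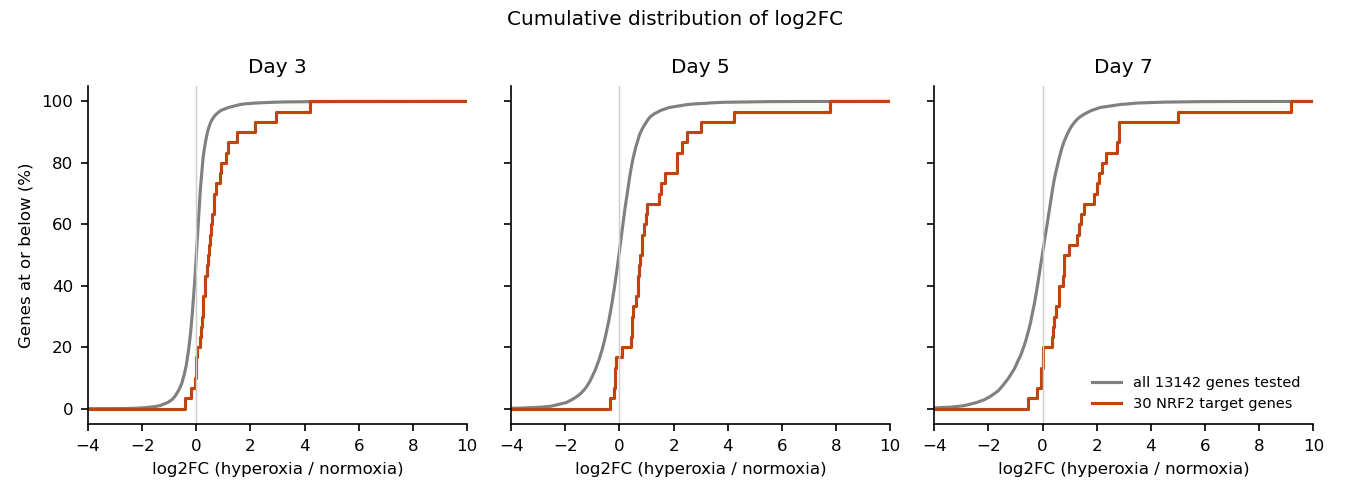
Cumulative share of genes (vertical axis, %) at or below each log2FC of hyperoxia over normoxia (horizontal axis) on days 3, 5 and 7, for the 30 NRF2 target genes in red and all 13142 genes tested in grey. The red curve lay to the right of the grey one over most of its range, with medians of 0.45, 0.80 and 0.88 against 0.00, -0.02 and -0.01.

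Set beside the distribution of all genes, 16 of the 30 lay above the 90th percentile of log2FC on day 3, which was 0.41. On days 5 and 7, 15 did so, where that percentile was 0.79 and 0.95. None lay below the 10th percentile on any day.

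The change between days was tested as the log2FC on day 7 minus the log2FC on day 3. It passed for 4 of the 30 genes, all larger on day 7, where 2.59% of all genes tested passed in that direction and 4.68% in the other. None of the 4 differed by more than 2 on the log2 scale, where 0.54% of all genes passed with a larger difference upwards and 1.02% downwards. The difference was 1.74 for TXNRD1 (SE 0.31, adjusted p = 0.00243), 1.85 for ABCC1 (SE 0.36, adjusted p = 0.00414), 1.78 for ABCC3 (SE 0.35, adjusted p = 0.00406) and 1.47 for SQSTM1 (SE 0.33, adjusted p = 0.00781). With the replicate number as a block TXNRD1 and ABCC1 passed and ABCC3 and SQSTM1 did not (adjusted p = 0.0134 and 0.0233). In fits that each lacked 1 sample the count ran from 1 to 8, the highest without HT7 replicate 2, and TXNRD1 passed in all of these fits. SLC7A11 had the largest difference, 4.98, but with an SE of 1.65 it did not pass (adjusted p = 0.0451). For NFE2L2 the difference was -0.30 (SE 0.12, adjusted p = 0.102), and for NQO1 it was 0.60 (SE 0.61, adjusted p = 0.521).

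**Figure D5:**
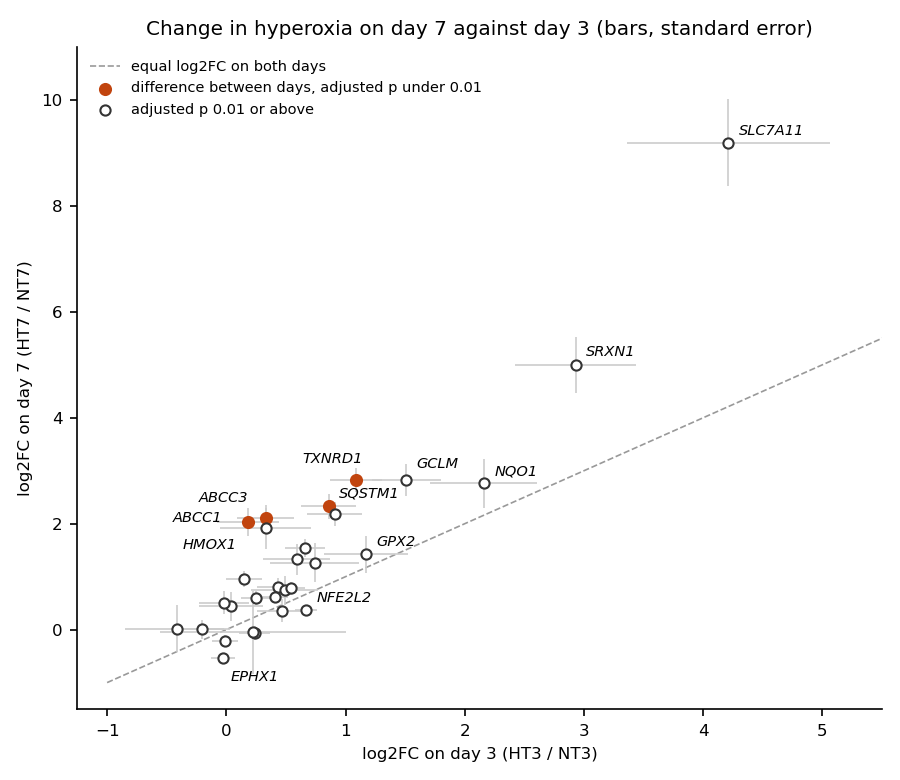
log2FC on day 7 (vertical axis) against log2FC on day 3 (horizontal axis) for the 30 NRF2 target genes, with bars of 1 SE and a dashed line where both are equal. Filled points mark the 4 genes whose difference between days passed the test, TXNRD1, ABCC1, ABCC3 and SQSTM1, all above the line.

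Group means were in the order HT3, HT5, HT7 from lowest to highest for 18 of the 30 genes, and for 3737 of all 13142 genes tested (28.4%). Over all 30 genes the log2FC was larger on day 7 than on day 5 for 19, a difference that was not tested.

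In normoxia the genes moved little with age. None of the 30 passed the test between NT7 and NT3, where no gene of the 13142 passed either (0% in each direction). An unadjusted p under 0.05 in the edgeR fit over all genes was found for 2 of the 30, TKT (log2FC 0.32) and NFE2L2 (log2FC 0.23), and for 824 of all genes tested. The median log2FC of the 30 genes was 0.15, with values from -0.41 for ME1 to 0.85 for SRXN1. DESeq2 also called none of the 30 in this comparison.

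Further genes of the pathway were described from 2 lists of 70 genes in all, 53 of which were tested. The list of 19 other regulators, 15 of them tested, holds NRF2 relatives, MAF and BACH partners, parts of ubiquitin ligases and sestrins. None of the 15 passed on day 3. On day 5, 4 rose and 2 fell, and on day 7, 5 rose and 5 fell, with medians of 0.22 and 0.28. Over all genes tested 8.56% rose and 7.62% fell on day 5, and 16.7% rose and 16.9% fell on day 7. The list of 51 other target genes, 38 of them tested, had none that passed on day 3, 11 that rose and 4 that fell on day 5, and 14 that rose and 8 that fell on day 7, with medians of 0.06 and 0.30. Those that fell on day 7, named after their values were seen, were PIR, GSTA4, GPX3, ALDH3A2, CES2, SLC6A9, PTGR2 and ABCC5, with log2FC from -1.80 for PIR to -0.57 for ABCC5, and CES2 and PIR each share a locus with another gene. Over both lists 21 genes passed on day 5, beside 2 without HT5 replicate 2, 12 without NT5 replicate 2 and 13 without NT5 replicate 3.

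SESN2, sestrin 2, which promotes the breakdown of KEAP1, had the largest change of the regulators. Its level was 19.5, 17.3 and 25.9 CPM in HT3, 61.3 and 114 CPM in HT5, 124, 81.8 and 130.3 CPM in HT7, and 6.01 to 15.1 CPM in the 9 normoxia samples. The log2FC was 1.35 (adjusted p = 0.0492), 3.25 (adjusted p = 4.45e-05) and 3.45 (adjusted p = 2.94e-06). MAFF, a small MAF protein that can pair with NRF2, rose on days 5 and 7 (log2FC 1.72 and 1.97, adjusted p = 0.00062 and 3.38e-05). BACH2, a repressor that competes for the same elements, fell on both days (log2FC -0.68 and -1.20, adjusted p = 0.00305 and 7.29e-06). BACH1, a related repressor named here after its values were seen, rose on both days (log2FC 0.99 and 0.96, adjusted p = 0.000916 and 0.000194). Without HT5 replicate 2, SESN2 still passed on day 5 (adjusted p = 0.000866), whereas MAFF (0.0269), BACH1 (0.0357) and BACH2 (0.0456) did not. BACH2 did not pass on that day without HT5 replicate 1 (0.0113) or NT5 replicate 2 (0.015) either. All 4 kept their calls on day 7 with any one sample of that day left out.

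By the rule on size, the targets named next all rose. On day 5 without HT5 replicate 2, CHAC1 alone among them still passed (adjusted p = 0.00788), and FTL (0.0427), GSTO1 (0.313), GSTP1 (0.0119) and SLC39A14 (0.022) did not. GSTO1 also missed the threshold without any one of the NT5 samples (adjusted p = 0.0174 to 0.03). FTL, the light chain of the iron store ferritin, stood at 1581, 1355 and 1677 CPM in HT3, 2997 and 4928 CPM in HT5, and 6501, 3953 and 6661 CPM in HT7. In normoxia it was 618, 819.8 and 737 CPM in NT3, 1782, 595 and 718 CPM in NT5, and 1054, 707 and 864 CPM in NT7. It rose on days 5 and 7 (log2FC 1.94 and 2.70, adjusted p = 0.00182 and 4.04e-05). Ferritin genes have many processed copies in mammalian genomes, so their counts are uncertain.

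GSTO1, an omega-class glutathione transferase, stood at 44.1 and 93.4 CPM in HT5 and at 169, 133 and 274 CPM in HT7. Its log2FC on day 3 was 0.34 (adjusted p = 0.547), and it rose on days 5 and 7 (log2FC 1.10 and 2.51, adjusted p = 0.00776 and 5.97e-06). Without HT5 replicate 2 its day 5 log2FC was 0.45. GSTP1, the pi-class transferase of lung and other epithelia, had a log2FC of 0.99, 1.44 and 2.10 (adjusted p = 0.0325, 0.00041 and 3.91e-06). Both transferases were higher in HT7 than in NT7 by more than 4-fold.

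SLC39A14, a metal ion importer, rose on days 5 and 7 (log2FC 1.92 and 2.07, adjusted p = 0.000499 and 4.52e-05). Without HT5 replicate 2 its day 5 log2FC was 1.11. CHAC1, which degrades glutathione and is also a target of ATF4, rose on days 5 and 7 (log2FC 2.72 and 1.84, adjusted p = 0.00124 and 0.0027) at levels of 2.13 to 4.73 CPM in hyperoxia and 0.207 to 1.30 CPM in normoxia. Its day 7 call was lost without HT7 replicate 1, NT7 replicate 2 or NT7 replicate 3 (adjusted p = 0.0116 to 0.0142). A gene of glutathione breakdown thus rose beside those of glutathione synthesis.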

How the data were processed

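The authors prepared TruSeq Stranded mRNA libraries from right lung homogenates and sequenced them as paired-end reads. Per the submitters' processing notes, FastQC, STAR 2.7.10a and the OryCun2.0 genome were used; the counting program is not given in the sources used here. The authors deposited whole-number counts per gene entry, without normalization, for 17 samples, which were analysed as deposited. A locus with several genes is repeated with the same counts, and the repeats held 8.96% to 10.1% of counts. 44 entries carry no human gene name.

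Groups were taken from the sample titles. edgeR 4.0.16 in R 4.3.3 was used with filterByExpr (13142 genes kept), TMM, 6 group means and the quasi-likelihood test on all 17 samples, so that groups share an estimate of the spread. P-values are two-sided and Benjamini-Hochberg adjusted over all genes tested. log2FC used a prior count of 0.125, and SE is the absolute log2FC divided by the square root of F. The scripts were tested on simulated data. The members and lists were chosen with earlier results of these data known. Every member is named. Values of each sample are given for the 2 members of each role with the largest change on day 7, for NFE2L2 and KEAP1, and for every DEG and day 3 call; other pathway genes are named where they were DEGs on any day or had the 3 largest changes on day 7 in their list.

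No replicates were duplicates. Whether replicate numbers pair hyperoxia with normoxia samples was checked by correlating deviations from group means. The correlations were 0.174, 0.145 and 0.226 on day 3, 0.284 and 0.16 on day 5, and 0.193, 0.12 and 0.0699 on day 7. With a cutoff of 0.1, the numbers were taken as pairs on day 3, where all 3 exceeded it, and not on day 7, where the third did not. The main fit held no block on any day, and the fit with the block is given beside it as an alternative. On day 5 the 2 pairs were both above 0.1 but too few to settle it. Where nothing says that samples came from separate litters, p-values measure the spread between these samples. Alternatives were DESeq2 1.42.0, its size factors, no count filter, a prior count of 2, 1 entry per locus, only the days compared, the replicate block and leaving out each sample. No sequences or gene coordinates other than those of the deposited table were used. Figures were drawn with matplotlib 3.10.9.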

Additional observations from a re-analysis of the deposited data

Results flagged for a closer look

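The effect of hyperoxia differed between days 7 and 3 for 4 of the 30 genes by a test of the difference itself. On the log2 scale it was larger on day 7 by 1.74 for TXNRD1, by 1.85 for ABCC1, by 1.78 for ABCC3 and by 1.47 for SQSTM1. In TXNRD1 and SQSTM1 all 3 HT7 samples were above all 3 HT3 samples while the normoxia levels of both days lay close together, and the same held for ABCC1 and ABCC3. With a single sample of days 3 and 7 left out, TXNRD1 passed in each of the 12 fits. ABCC1 lost the call in 5, without HT3 replicate 1 (adjusted p = 0.0122), NT3 replicates 1, 2 and 3 (0.0104, 0.0108 and 0.0113) and NT7 replicate 2 (0.0143). ABCC3 passed in 3 of the fits, those without HT3 replicate 3, HT7 replicate 2 and NT7 replicate 1, and SQSTM1 passed only without HT7 replicate 2. The highest adjusted p was 0.0133 for ABCC3, without HT7 replicate 3, and 0.023 for SQSTM1, without the same sample.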

How the results depend on the processing

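No result changed its direction while called. On day 3, where 1 member passed, DESeq2 called 8 (SLC7A11, GCLC, GCLM, TXNRD1, SRXN1, NQO1, BLVRB and NFE2L2), a fit of the day's samples alone 4 (GCLM, TXNRD1, SRXN1 and SQSTM1, without NFE2L2), the replicate block 0, and leaving out each sample 0 to 1. On day 5, where 13 passed, the day's samples alone gave 0, DESeq2 15, and leaving out each sample 6 to 16. The block gave 9, without NQO1, ABCC3, GSR and GSS (adjusted p = 0.0112, 0.0141, 0.0182 and 0.0205), and the 2 pairs of that day were too few to settle whether the numbers pair the samples. On day 7 the count of 20 stayed between 18 and 21. For day 7 minus day 3, where 4 passed, DESeq2 called 10, the replicate block 2, and leaving out each sample 1 to 8. For NT7 against NT3 each setting gave 0, with no block fitted since replicate numbers were nested in days. The median log2FC on day 5 ran from 0.65 without HT5 replicate 2 to 1.0 without replicate 1, and on day 7 from 0.74 to 1.19 with a sample left out. Of the other pathway genes, where 0 passed on day 3, DESeq2 called 5 and the day's samples alone 1. On day 5, where 21 passed, the day's samples alone gave 0, the block 11 and leaving out each sample 2 to 19. For day 7 minus day 3, where 8 passed, DESeq2 called 17 and leaving out each sample gave 2 to 15. The shares of all genes called under these other settings are not given here, so a moved count cannot be read as a change in these genes alone. The causes were not tested. Changes in genes with few counts, such as ABCC2, PRDX1 and normoxic SLC7A11, are limited by depth.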
